A study of Drosophila melanogaster with 2 samples.

Results

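The genes elav, fne and Rbp9 are the 3 members of the ELAV/Hu family of RNA-binding proteins in Drosophila melanogaster, out of 13968 protein-coding genes annotated on the 7 chromosome arms. They were chosen by name, and with the peaks at them in these same lists already known: the promoter peak of elav among genes of the nervous system was selected on its signal. Their peaks are therefore described here without a test. The data are ChIP-seq peak lists of MBD-R2, a chromatin protein of the NSL complex, which carries the histone acetyltransferase MOF and occupies promoters of broadly expressed genes. The tagged protein, an MBD-R2-eGFP fusion, was precipitated with an antibody against GFP from whole transgenic embryos of 0 to 24 h, and chromatin was sonicated to 200 to 800 bp. There is 1 group with 2 biological replicates, no untagged or other condition is compared, and the labels give no sex and do not name the promoter that drives the fusion. Neurons are a part of the embryo, so a peak present in few cells and a weak peak in many cells cannot be told apart.

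ELAV/Hu proteins carry RNA recognition motifs and bind U-rich stretches of RNA, where they act on splicing, on the choice of polyadenylation site and on the stability of the transcript. Elav is nuclear, is made in nearly all neurons once they are born and is the standard marker of neurons in flies. Fne ("found in neurons") is a mostly cytoplasmic neuronal paralog, and Rbp9 is found in the nervous system and in the female germline, where it acts in egg chamber development. The proteins translated from the longest annotated coding sequence had 483 residues (Elav), 371 (Fne) and 439 (Rbp9). Fne and Rbp9 were identical at 74.3% of 331 aligned residues, Elav and Fne at 66.5% of 337, and Elav and Rbp9 at 57.8% of 393. Sxl, the RNA-binding switch of sex determination and a relative of the family, was identical to Fne at 44.6% of 186 aligned residues. It was identical to Elav at 41.3% of 196 and to Rbp9 at 34.5% of 264.

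MBD-R2 peaks lay at different places in the 3 genes. The gene elav had a strong peak upstream of its 5′-most promoter and another in its first intron. The gene fne had 2 weaker peaks deep in a long intron and none at a promoter. The gene Rbp9 had none inside it, and the 2 summits within 2 kb of it lay at the promoter of the neighbouring gene Ts. In the main list, made from both replicates and thresholded by the authors on the irreproducible discovery rate (IDR, a measure of how repeatably a peak ranks), 1 of the 3 genes, elav, had a summit within 500 bp of an own transcription start site (TSS). Of all protein-coding genes 44.0% had one, and since elav was selected on this measure nothing is read from the count.

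The following sequences show the chromatin under these summits, read from the RefSeq copy of the dm6 assembly in the direction of the gene. Capitals mark matches, on either strand, to GAGAG, a core of the site bound by GAGA factor, to the letters TATAAA of the basal promoter element, and to ATCGAT, the core of the DNA replication-related element. The 4 peaks of elav and fne hold no annotated UTR, and the last sequence runs from the end of Rrp1 to the TSS of Ts. The upstream elav peak is chrX:523332-523628, minus strand, and its intron peak is chrX:522523-522681, minus strand.

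elav upstream peak: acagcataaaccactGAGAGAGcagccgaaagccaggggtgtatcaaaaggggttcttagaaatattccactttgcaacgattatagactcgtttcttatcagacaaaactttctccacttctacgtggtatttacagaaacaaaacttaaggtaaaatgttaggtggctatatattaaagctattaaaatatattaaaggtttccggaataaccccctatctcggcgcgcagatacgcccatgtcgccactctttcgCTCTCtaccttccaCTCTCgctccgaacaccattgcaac

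elav intron peak: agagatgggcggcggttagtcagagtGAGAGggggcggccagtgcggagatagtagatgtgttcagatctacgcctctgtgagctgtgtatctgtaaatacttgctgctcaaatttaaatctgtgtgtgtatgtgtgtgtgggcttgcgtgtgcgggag

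The fne sequences are the central 300 bases of the stronger peak, chrX:12925882-12926181, and of the weaker one, chrX:12922359-12922658, both on the plus strand.

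fne stronger intron peak: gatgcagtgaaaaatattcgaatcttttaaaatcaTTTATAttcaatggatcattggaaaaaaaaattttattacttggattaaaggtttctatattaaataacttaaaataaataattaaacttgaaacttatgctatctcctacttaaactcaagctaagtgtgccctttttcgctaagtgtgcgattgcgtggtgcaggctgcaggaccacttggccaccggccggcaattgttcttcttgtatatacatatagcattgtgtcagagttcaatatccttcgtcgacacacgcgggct

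fne weaker intron peak: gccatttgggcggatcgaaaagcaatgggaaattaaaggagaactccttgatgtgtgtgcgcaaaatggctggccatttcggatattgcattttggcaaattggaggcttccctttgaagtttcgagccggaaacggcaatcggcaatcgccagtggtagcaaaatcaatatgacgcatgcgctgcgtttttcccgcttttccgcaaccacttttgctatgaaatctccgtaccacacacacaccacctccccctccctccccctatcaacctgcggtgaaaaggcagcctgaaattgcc

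The promoter beside Rbp9 is that of Ts, chr2L:2969639-2969772, minus strand, and it holds the weaker of the 2 summits there at base 46.

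Ts upstream region: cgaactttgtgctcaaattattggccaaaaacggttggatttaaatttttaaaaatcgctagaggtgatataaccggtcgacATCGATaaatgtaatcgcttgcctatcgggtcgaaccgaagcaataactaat

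elav (FBgn0260400) lies on the X chromosome at 509235 to 523226, minus strand, and has 4 annotated transcripts from 2 TSSs. The 5′-most TSS, at 523226, starts 3 of them, and that at 520285 starts 1. The stronger peak had a signal of 459.5 in the main list, where it ranked 198 of 7544. The signal is the value of the authors' peak caller, whose scaling is not stated, so it is read only within a list. In the replicate 1 list the peak had a signal of 140.4 and ranked 430 of 4113. In the replicate 2 list it had 315.5 and ranked 153 of 7542. In the conservative list, a stricter list for the series, it ranked 197 of 5704 with the same signal as in the main list. The peak was in every thresholded list, within the strongest 2.62% of the main list and the strongest 10.5% of the replicate 1 list.

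The summit of this peak lay 263 bp upstream of the TSS at 523226 in the main list and 241 bp upstream in each replicate's list. The whole interval was upstream, with its near edge 106 bp and its far edge 402 bp from the TSS. Of the 5746 main-list summits within 500 bp of any annotated TSS, 453 (7.88%) lay at least as far from their nearest TSS, and the median distance was 57 bp. With a window of 250 bp in place of 500 bp the call of elav was lost in the main list, where 39.5% of protein-coding genes kept one. The summits of the replicates' lists, at 241 bp, lie within that window. The same TSS starts lncRNA:enrr, a non-coding RNA that shares its first exons with elav, so the summit was equally far from both genes. The summit also lay in an intron of arg, the arginase gene on the opposite strand, whose own TSS was 14054 bp away and had no promoter summit. The other protein-coding neighbour within 2 kb, svr, a carboxypeptidase gene that ends 163 bp past the 3′ end of elav, had a promoter summit of 119.2.

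The weaker elav peak lay in the first intron, which runs from 521697 to 522985. Its signal was 167 in the main list, where it ranked 2421 of 7544, 46.5 in the replicate 1 list (rank 3225 of 4113) and 116.7 in the replicate 2 list (rank 2089 of 7542). It was in all 4 thresholded lists as well. In replicate 1 its IDR was 0.00829, near the limit of 0.01, and in replicate 2 it was 0.00016. The upstream peak had 1e-05 in both. The summit of the intron peak was 621 bp downstream of the TSS in the main list and 617 bp downstream in each replicate's list. The first exon of elav, 241 bp of 5′ UTR, lay between the 2 peaks and under neither, with 106 bp to the upstream peak and 305 bp to the intron peak. The summits were 884 bp apart. Of the 5746 promoter summits 19.2% had another main-list summit 500 to 1000 bp away, and of the 171 that were as strong as that of elav or stronger, itself included, 14 had one (8.19%). In the main list the upstream peak spanned 297 bp and the intron peak 159 bp, against a median of 440 bp. Most main-list peaks had exactly that width: 32.4% were narrower, and 99.0% spanned 440 bp or less. Of main-list peaks 25.9% were as narrow as the former and 6.67% as narrow as the latter, but in the replicate 1 list the intron peak spanned 370 bp, the median of that list.

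**Figure D1:**
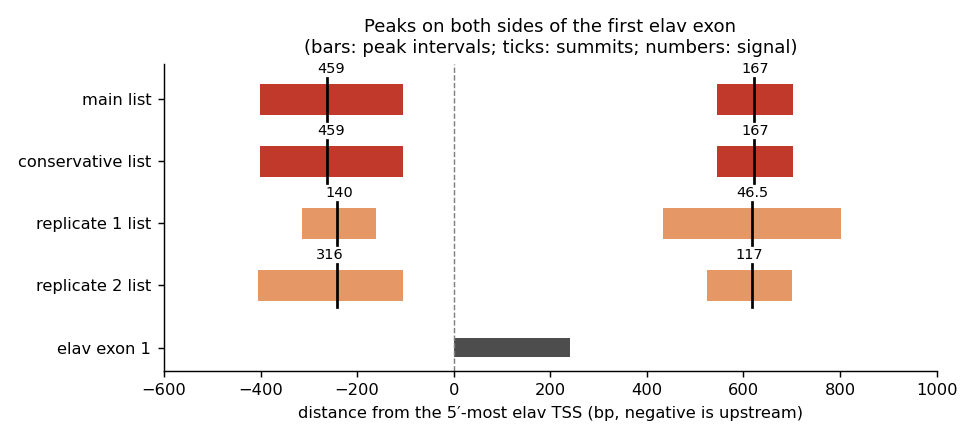
Peak intervals (bars), summits (ticks) and signals (numbers) at the start of elav in the 4 thresholded lists, against the distance in bp from the 5′-most TSS, with the first exon in grey. In every list the exon lies between an upstream peak and an intron peak, and the upstream one has the higher signal.

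Set against other peaks of its kind, the upstream elav peak ranked 171 of 5746 promoter summits, above 97.0% of them, where the median signal was 135.7. On the X chromosome it ranked 15 of 1011. The intron peak was more than 500 bp from any TSS, and ranked 215 of 1797 such summits, whose median signal was 79.8. Of all protein-coding genes, 688 (4.93%) had a promoter summit and a further summit inside the gene away from their own TSSs, as elav did. These 688 are among the 6151 genes that had a promoter summit at all. The genes whose promoter signal in the 2 replicates' own rankings was most like that of elav, by Euclidean distance on the log2 scale among 6011 genes, were CG2611 and the neighbours CG4338 and Cp190. CG2611 had 144.7 in replicate 1 and 310.7 in replicate 2. CG4338 and the insulator protein gene Cp190 are listed with 1 shared peak, of 144.2 and 326.

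The remaining TSS of elav, at 520285, had no thresholded peak. The pooled ranking, which lists 100373 peaks before thresholding, had a summit 287 bp upstream of it with a signal of 25.8 and an IDR of 0.598. Replicate 1's own ranking had none within 500 bp. In all, the pooled ranking held 21 summits in elav or within 2 kb of it, with signals from 2.03 to 459.5, and 2 of them had an IDR of at most 0.01. The others had signals of at most 33.3. In this ranking 76.7% of protein-coding genes had a summit of any strength within 500 bp of a TSS, those with a main-list peak included.

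fne (FBgn0086675) lies on the X chromosome at 12917477 to 12950417, plus strand, and has 11 annotated transcripts from 4 TSSs. These stand at 12917477, 12917484, 12938517 and 12941272. The stronger of its 2 main-list peaks, at 12925812 to 12926251, had a signal of 66.3 and ranked 6063 of 7544. Its summit was 8548 bp downstream of the TSS at 12917484 and 12485 bp upstream of that at 12938517. The weaker, at 12922289 to 12922728, had a signal of 58.2, ranked 6496, and had its summit 5025 bp downstream of the TSS at 12917484. Both summits were in an intron of fne, and no TSS of another gene was nearer than those of fne. Among the 1797 main-list summits away from any TSS they ranked 1193 and 1402, below the median of 79.8.

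The fne peaks differed between lists where those of elav did not. Neither was in the conservative list or in the replicate 1 list, and 1 was in the replicate 2 list, the stronger, with a signal of 62.6 and rank 4711 of 7542. Replicate 1's own ranking held no peak that overlaps the stronger one, so a main-list peak need not be listed in both replicates. Of the 7544 main-list peaks 93.5% had an overlapping peak in both replicates' rankings. At the weaker one it held a peak of 21.4 (IDR 0.0992), and the ranking of replicate 2 a peak of 35.9 (IDR 0.0240). The IDR of the stronger peak was 0.00429 in the pooled ranking and 0.739 in the ranking that the conservative list was taken from. For the weaker peak the values were 0.00476 and 0.0359.

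The pooled ranking held 12 summits in fne or within 2 kb of it, and at the TSSs of fne only weak peaks were listed. The pooled ranking had a summit 42 bp downstream of the TSS at 12917484 (signal 21.7, IDR 0.733) and another 349 bp upstream of that at 12938517 (signal 27.0, IDR 0.872). Within 500 bp of the TSS at 12941272 it had none. Genes without a main-list promoter summit numbered 7817, and 58.4% of them had such a weak peak, with a median of the strongest signal of 26.4 (quartiles 17.7 and 38.0). The neighbours of fne within 2 kb, hec, a receptor gene on the opposite strand, and lncRNA:CR45626, had no promoter summit in the main list. A summit inside the gene with none at an own promoter was found for 417 protein-coding genes (2.99%).

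Rbp9 (FBgn0010263) lies on chromosome arm 2L at 2954762 to 2968434, plus strand, and has 9 annotated transcripts from 3 TSSs, at 2954762, 2956911 and 2959147. No main-list summit lay inside the gene. The 2 summits within 2 kb of it, at 2969527 and 2969727, lay 1093 and 1293 bp past its end, and 10380 and 10580 bp from its nearest TSS. They belong to overlapping intervals, 2969307 to 2969746 and 2969507 to 2969946, and had signals of 69.6 (rank 5858 of 7544) and 11.7 (rank 7336). Both were next to the TSS of Ts, thymidylate synthase, on the opposite strand: 1 summit was 111 bp downstream of it, in the coding sequence, and the other 89 bp upstream. Ts overlaps the end of Rbp9 by annotation. The gene Rrp1, a DNA repair endonuclease that ends upstream of Ts, had a promoter summit of 196.3, and lilli, a transcription elongation factor gene that ends 356 bp before Rbp9, had one of 87.4.

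The peak at Ts was weak: its stronger summit ranked 4756 of 5746 promoter summits, above 17.2% of them. It was in none of the conservative, replicate 1 and replicate 2 lists. In the replicates' own rankings it had 22.3 in replicate 1, with an IDR of 0.754, and 48.7 in replicate 2, with an IDR of 0.0291. A summit in the flank alone, with none inside the gene or at an own promoter, was found for 1558 protein-coding genes (11.2%). Counting any summit in the gene or within 2 kb, 3 of 3 genes had one, against 58.2% of all protein-coding genes.

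In all, the pooled ranking held 17 summits in Rbp9 or within 2 kb of it, and 2 of them, those at Ts, had an IDR of at most 0.01. The strongest inside the gene (signal 36.6, IDR 0.142) was in the 3′ UTR, 7961 bp from the nearest own TSS. Weaker summits lay close to the TSSs of Rbp9. A summit lay 14 bp upstream of the TSS at 2959147 (signal 14.3, IDR 0.635) and another 47 bp upstream of that at 2956911 (signal 31.2, IDR 0.706). At the TSS at 2954762 the strongest summit was 496 bp downstream (signal 17.2, IDR 0.387). Replicate 1's own ranking had no summit within 500 bp of any of the 3 TSSs, while that of replicate 2 had signals of 18.6, 17.8 and 11.5 at them in the same order. The strongest pooled-ranking summit at these TSSs had a signal of 31.2. It lay between the quartiles of 17.7 and 38.0 given above, and above the median of 26.4. Those values are for the strongest promoter signal of genes without a main-list promoter summit.

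**Figure D2:**
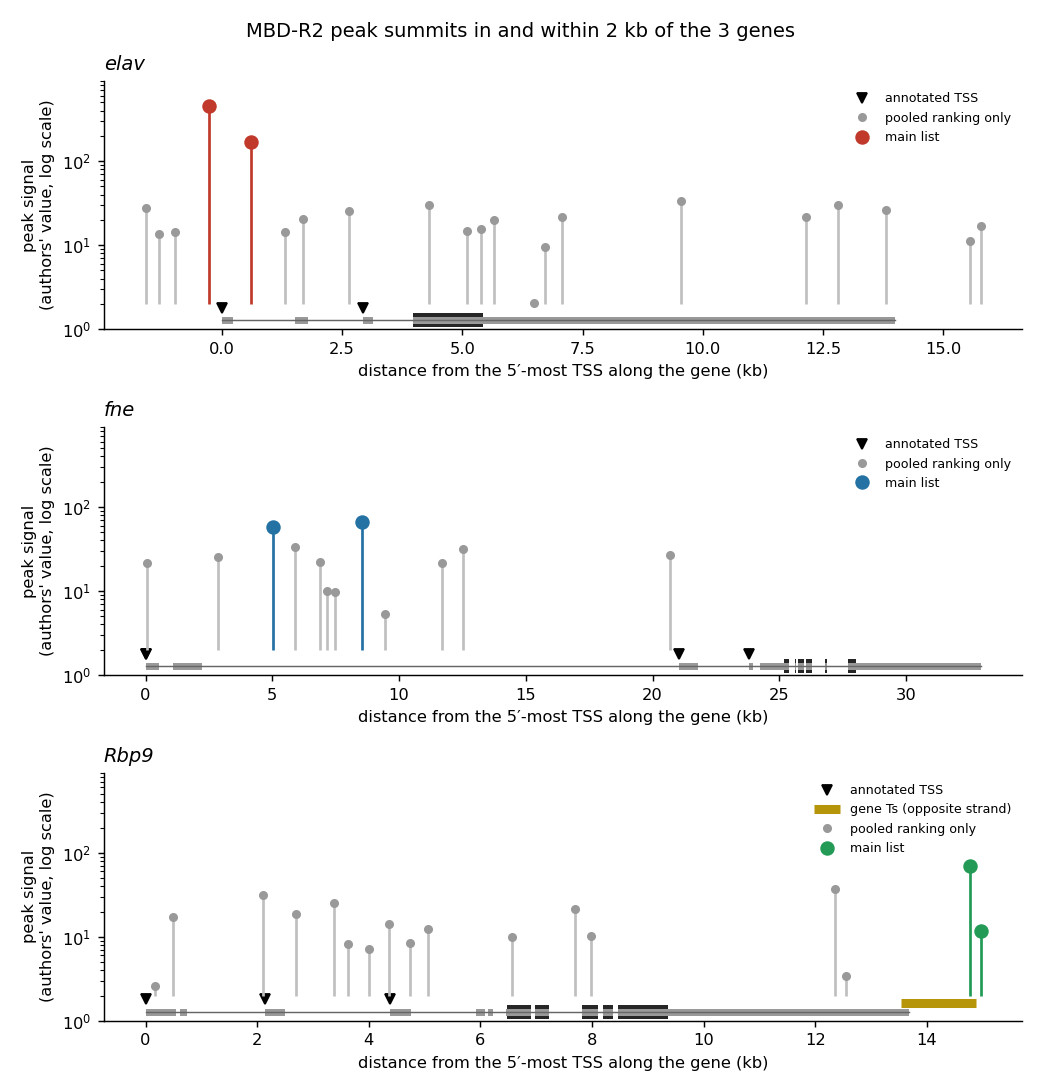
Peak signal (log scale) of every summit in and within 2 kb of elav, fne and Rbp9 in the pooled ranking, with those of the main list in colour, against the distance in kb from the 5′-most TSS. Grey and black boxes are exons and coding sequence; main-list summits flank the start of elav, stand in an intron of fne and lie at Ts, past the end of Rbp9.

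Of the 6 main-list summits just outside the limit of 2 kb, 5 were within 500 bp of a TSS of another gene. The nearest beyond elav were 9551 bp past its 3′ end (signal 119.2), the promoter summit of svr and 228 bp from a TSS of asRNA:CR44892, and 6603 bp upstream of its start (238.9), 20 bp from a TSS of CG4293. The nearest beyond fne were 7277 bp upstream, at CG4645 (87.3), and 140760 bp downstream, at lic (101.8). The nearest beyond Rbp9 were 57632 bp upstream (60.1), 6959 bp from the nearest TSS, one of lilli, and 4398 bp downstream, at gammaTub23C and Rrp1 (196.3).

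In the other lists elav was again the gene called with the 500 bp window. The 250 bp window, which lost the call, was tried on the main list only. There the summit lay 263 bp upstream, as in the conservative list. In each replicate's list it lay 241 bp upstream, within 250 bp. With the conservative list 1 of 3 was called, elav, and 39.7% of protein-coding genes. The replicate 1 list gave 1 of 3 and 33.2%, and the replicate 2 list 1 of 3 and 43.5%. Where an own TSS also had to be the nearest TSS of any gene to the summit, with ties kept, elav was called with 35.4% of protein-coding genes.

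**Figure D3:**
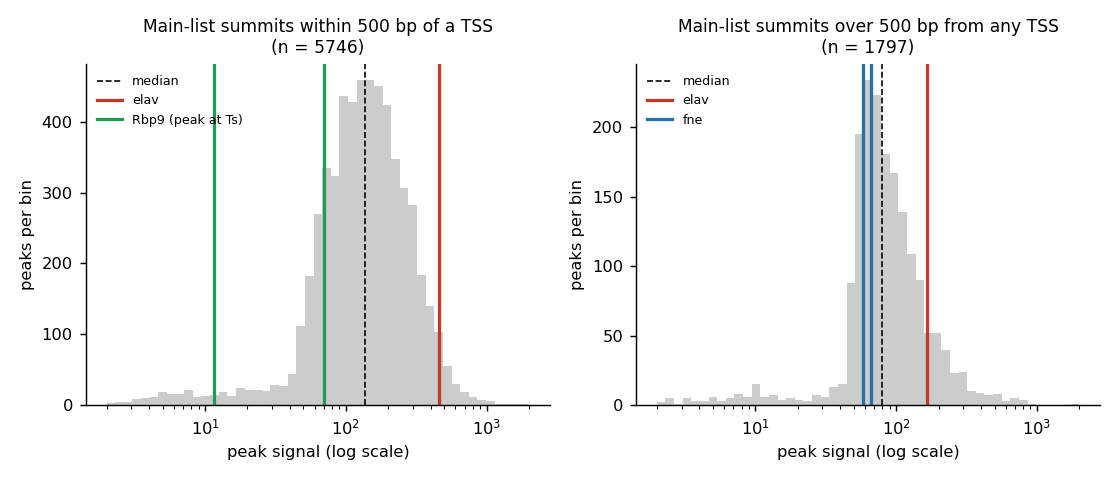
Numbers of main-list peaks by signal (log scale) for summits within 500 bp of a TSS (left) and farther from any TSS (right), with the median dashed and the peaks at elav, fne and Rbp9 as coloured lines. The upstream elav peak lies in the right tail (459.5 against a median of 135.7), while the peaks of fne and those at Ts lie below their medians.

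At elav, fne and Ts the signal was higher in replicate 2 at every peak with a value in both replicates' rankings. It was 2.25 times that of replicate 1 at the upstream elav peak and 2.51 times at the intron peak. At the weaker fne peak the ratio was 1.68 and at Ts 2.18, where both main-list summits match the same replicate peaks. Across the 7054 main-list peaks with a value in both replicates the median ratio was 1.74 (quartiles 1.36 and 2.32). The rankings are not scaled to each other, so a ratio is read only against this median. The upstream elav peak and the peaks at fne and Ts fell between the quartiles, and the elav intron peak above them, higher than 79.7% of main-list peaks.

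**Figure D4:**
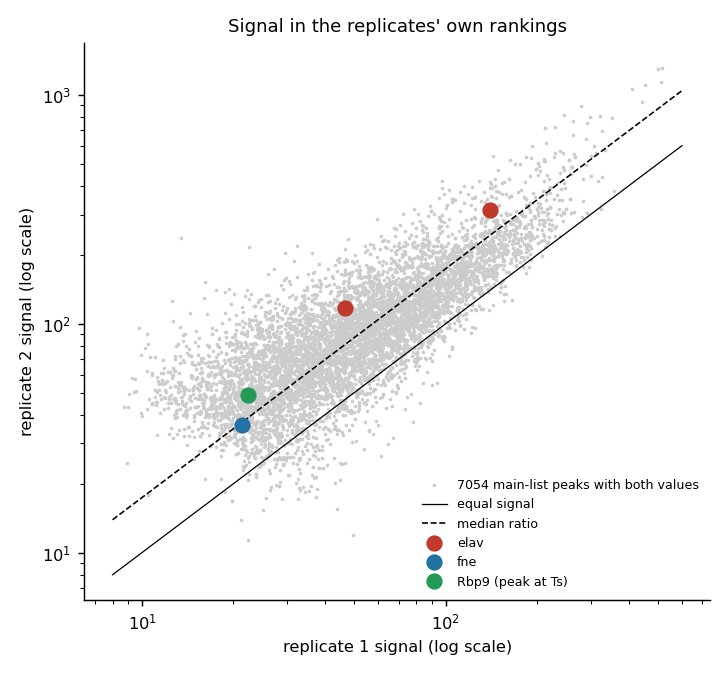
Signal of replicate 2 against that of replicate 1 in their own rankings (log scales) for main-list peaks, with the peaks at elav, fne and Rbp9 in colour. The solid line is equal signal and the dashed line the median ratio of 1.74; the stronger fne peak has no replicate 1 value and is not drawn.

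The sequences under the peaks differed in the motifs they held. In windows of 150 bp on each side of the summit, GAGAG was found 4 times at the upstream elav peak and 5 times at the intron peak, overlapping matches included, and at neither fne peak. All 4 of the former and 1 of the latter lie whole within the printed peak intervals. The stronger Ts summit had 2, one of them centred 5 bp from the summit, and the weaker Ts summit none. The counts depended on the window. Within 100 bp of the summit the upstream elav peak had none and the intron peak 4, where 21.7% of main-list summit windows held a match. Within 250 bp the stronger fne peak had 13, many of them overlapping, the upstream elav peak 10 and the intron peak 6. Of main-list windows that wide 46.5% held a match. Of the 7543 main-list summit windows with 150 bp on each side, 31.8% held GAGAG at least once, and 3.75% held it 4 times or more. Around all 5′-most TSSs of protein-coding genes the share with a match was 30.7%. The element TATCGATA was at none of the 6 summits and is in 10.9% of summit windows. Its core ATCGAT was found once in the window of the elav intron peak, at its edge, once at the weaker Ts summit, and in 25.3% of summit windows. GGTCACAC, the core of Motif 1, and the E-box CAGCTG were at none of the 6 (10.2% and 23.8% of windows). The BEAF core CGATA, whose letters overlap those of TATCGATA and ATCGAT, was found once at the elav intron peak. It was found once and 2 times at the Ts summits, and in 49.6% of windows. TATAAA was found once, at the stronger fne peak, and in 34.2% of windows.

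The GC content of 301 bp around the summit was 41.2% at the upstream elav peak, next to the median of 40.9% over all main-list summits (quartiles 36.5 and 46.2). It was 49.2% at the elav intron peak and 50.2% at the weaker fne peak, above the upper quartile. At the stronger fne peak it was 35.5%, below the lower quartile.

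Genes related to elav, and other genes of the nervous system, were looked up in lists chosen by function with earlier results of these data known. A list's share stands beside that of all protein-coding genes, 44.0%, without a test. Of 82 distinct genes in 6 partly overlapping lists, 30 had a promoter summit (36.6%), and 3 of these had a higher signal than elav. Their signals are set against a median of 170.3 over all called genes.

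Of the relatives of the family, Sxl had a promoter summit with a signal of 100.5, 77.9 in the replicate 2 list and none in the replicate 1 list. Its close paralog ssx had none in the main list and 56.6 in the replicate 2 list. Other RNA-binding regulators had 17 of 25 (68.0%, Wilson 95% interval 48.4 to 82.8), and 9 of 25 (36%) in the replicate 1 list, where all protein-coding genes had 33.2%. The highest were orb, a translational regulator of oogenesis (621.6), msi, the fly Musashi (488.6), and Rox8, a relative of TIA-1 (159.7). The orb summit was nearer to a TSS of Cdc16. No summit was found for Syp, Rbp6 and bru1. Genes whose RNAs Elav is known to process had 7 of 12 (58.3%, interval 32.0 to 80.7) and 3 of 12 (25%) in the replicate 1 list, below the same 33.2%. The genes brat, pum, Imp, Hrb27C and shep are in both this list and that of other RNA-binding regulators. Of these, brat, Imp and shep had a promoter summit, so the 2 shares are not separate observations. AGO1, the Argonaute of the microRNA pathway, had 272.5 at its strongest summit, which was nearer to CG33155 and mRpL53, and a further summit nearest to an own TSS. The RNA-binding protein gene shep had 138.1 and brat, a translational repressor, 116.5, while arm, Dscam1 and pum had none.

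Genes of synapses and excitability had 5 of 24 with a promoter summit (20.8%, interval 9.24 to 40.5). Nrx-1, the neurexin gene, had 185.2 at its strongest summit, which was nearer to CG5377, and a further summit nearest to an own TSS. Csp, a synaptic vesicle chaperone, had 100.4, and futsch, a microtubule-associated protein, 62.3. Of the 5, Appl, the amyloid precursor homologue, was the one with no summit nearest to an own TSS (signal 24.3, nearer to CG4293), and is named after its values were seen. The vesicle protein genes nSyb and Syt1 and the active zone gene brp had none. Regulators of neural fate had 1 of 16 (6.25%, interval 1.11 to 28.3), SoxN with 67.8, and scrt, nerfin-1 and pros had none. Glial genes had 2 of 8 (25%, interval 7.15 to 59.1): moody, a receptor of the blood-brain barrier, with 521.7, and loco with 100.5, whose summit was nearer to wake. The glial regulators repo, gcm and gcm2 had none. The intervals cover counting error only.

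**Figure D5:**
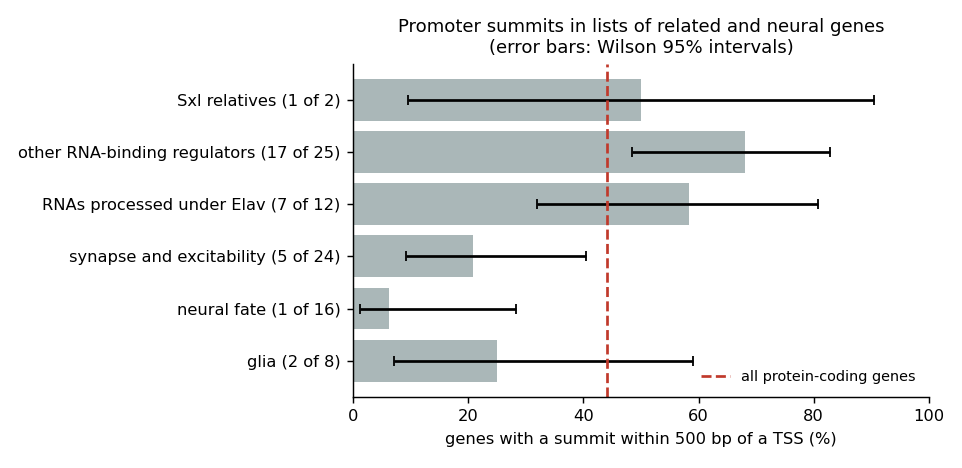
Percentage of genes with a main-list summit within 500 bp of a TSS in 6 lists, with Wilson 95% intervals, and the share of all protein-coding genes as a dashed line. The shares run from 6.25% (neural fate) to 68.0% (other RNA-binding regulators). Genes shared between lists count in each.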

How the data were processed

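The data are ChIP-seq peak lists of 2 biological replicates of 1 group, on dm6 per the labels. No source used here names the aligner or peak caller or gives read numbers, so depth is unknown. Control libraries named in the labels were not analysed here. The signal of each peak, its score (a scaled IDR, at least 830 in every thresholded list) and, in the rankings, the −log10 of its IDR are the values the authors deposited. The lowest score corresponds to an IDR of 0.01.

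Summits were placed against TSSs of the Ensembl release 115 annotation, without transposable elements. No peak ran past a chromosome end, and sequence came from the RefSeq copy of the assembly. A gene was called where any of its TSSs had a summit at most 500 bp away, and ranks are by signal within a list. All 5704 conservative peaks are in the ranking of 72370 peaks used for their IDR. Replicate peaks were matched by an overlap of at least 1 bp, taking the strongest. Motifs were searched on both strands. Proteins were aligned locally (BLOSUM62, Biopython 1.88). Calls were checked on simulated peaks. Python 3.11.15 with SciPy 1.17.1 was used.

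The members, lists and motifs were chosen with earlier results of these data known. Named genes are the members, genes within 2 kb of them or nearest to their summits, the 3 genes most like elav, and per list the 3 genes of highest signal and up to 3 without a summit in list order. Genes shared between lists are named as well. The planned symbol Cpx was matched to cpx through RefSeq synonyms.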

Additional observations from a re-analysis of the deposited data

How the results depend on the processing

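Of 82 values recomputed under other settings, 56 stayed within the main value's error, or within 1.5 times a count, and 26 moved. For a list's share that error is the Wilson interval, which is wide for short lists, so a share within it can still differ. RNAs processed under Elav had 58.3% in the main list, 33.3% in the conservative list and 75% in the replicate 2 list. All protein-coding genes had 44.0%, 39.7% and 43.5% in the same order. Neither change counted as a move. With a TSS window of 250 bp in the main list 0 of the 3 genes had a promoter summit, and of the Sxl relatives 0% against 50%. With only the 5′-most TSS the Sxl relatives had 0% and other RNA-binding regulators 48%, against 42% of all protein-coding genes. At an IDR of at most 0.001 the shares were 0% (Sxl relatives), 32% (other RNA-binding regulators), 25% (RNAs processed under Elav) and 0% (neural fate, also 0% in the conservative list), against 35.5% of all protein-coding genes. Between the replicates' own lists, each leaving out the other replicate, shares ran from 0 to 100% for the Sxl relatives. They ran from 36 to 72% for other RNA-binding regulators and from 25 to 75% for RNAs processed under Elav. For synaptic genes they ran from 8.33 to 16.7% and for neural fate from 0 to 6.25%. The lower share was that of the replicate 1 list each time. Of all protein-coding genes 33.2% were called in the replicate 1 list and 43.5% in the replicate 2 list. The standing of the upstream elav peak ran from above 89.1% to above 97.8% of promoter summits. Its offset was -241 bp in both replicates' lists and -263 bp in the main list, and that of fne 8534 bp in the replicate 2 list. Without a flank elav had 1 peak and Rbp9 0. Motif matches summed over the 7 strings and both summits of a gene were 11 for elav (4 within 100 bp, 18 within 250 bp), 1 for fne (0 and 15) and 6 for Rbp9 (10 within 250 bp). These sums count some sites more than once, since the strings overlap each other and so do the windows at Ts. The cause of the differences between settings was not tested. Under a 50% reciprocal overlap the elav intron peak had no replicate 1 match, so no ratio. For fne and Rbp9 the conservative and replicate 1 lists gave no offset, nor did the replicate 2 list for Rbp9. No paired analysis was possible because there is 1 group. With 2 replicates and unknown depth, no error can be given for a single signal.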
